A study of Mus musculus with 6 samples.

Results

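The genes described here encode 4 chains of the laminins (Lama3, Lama5, Lamb3 and Lamc1), the basement membrane proteoglycan perlecan (Hspg2), and the secreted matrix proteins fibulin-2 (Fbln2), fibronectin (Fn1), SPARC (Sparc) and periostin (Postn). They are 9 of the 26094 genes in the table, found by matching its gene identifiers to mouse symbols and adding the listed transcripts of each gene. Their mRNA was measured by RNA sequencing in 4T1, a line of mouse mammary carcinoma cells used for transplantable tumours. All libraries came from 4T1 cells infected with lentivirus packaged in HEK293T cells and selected with antibiotic as stable lines. For 3 libraries (Limch1_OE) the virus was built from PLVX-ires-neo carrying the mouse gene Limch1, an actin-associated activator of non-muscle myosin, and 3 libraries (Vector) are the control line. The labels do not say what the control vector carried, nor whether replicates are separate cultures. The p-values therefore reflect library-to-library spread alone, and that spread may be technical. Cells without virus were not analysed here.

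Epithelial cells rest on a basement membrane, a sheet built from laminins, type IV collagen, nidogens and perlecan. A laminin is secreted as a trimer of an alpha, a beta and a gamma chain, and each chain is encoded by its own gene. The chains encoded by Lama3 and Lamb3 belong to laminin that anchors epithelium through hemidesmosomes, whereas chains encoded by Lama5 and Lamc1 form trimers of most epithelial and vascular basement membranes. Fibronectin is a fibril-forming ligand of integrins, fibulin-2 bridges laminins, fibronectin and elastic fibres, and SPARC and periostin are matricellular proteins, which modulate contacts between cells and matrix more than they build structure.

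Splicing makes distinct fibronectins and fibulin-2 proteins. Some exons that set them apart are shown here because the split of Fn1 and Fbln2 FPKM between transcripts depends in part on them. Fn1 transcripts that are alike in both Fn1 exons shown can still differ elsewhere. For example, Fn1-203 and Fn1-216 skip both and have 6888 and 6528 coding bases. Capitals mark the exon that is included or skipped and small letters the 12 bases of the neighbouring exon on each side, in the mRNA's 5′ to 3′ direction, from the GENCODE M21 transcripts (mm10). The Fn1 exon of 270 bases (90 codons, chr1:71603660-71603929, minus strand, exon 32 of Fn1-214) has the length of extra domain A. The Fn1 exon of 273 bases (91 codons, chr1:71613763-71614035, minus strand, exon 25 of Fn1-201) has that of extra domain B. Both domains are typical of fibronectin made by cells in tissue rather than of the plasma form. The Fbln2 exon of 141 bases (47 codons, chr6:91259630-91259770, plus strand) is exon 9 of Fbln2-201 and is skipped in Fbln2-202.
Fn1 270-base exon: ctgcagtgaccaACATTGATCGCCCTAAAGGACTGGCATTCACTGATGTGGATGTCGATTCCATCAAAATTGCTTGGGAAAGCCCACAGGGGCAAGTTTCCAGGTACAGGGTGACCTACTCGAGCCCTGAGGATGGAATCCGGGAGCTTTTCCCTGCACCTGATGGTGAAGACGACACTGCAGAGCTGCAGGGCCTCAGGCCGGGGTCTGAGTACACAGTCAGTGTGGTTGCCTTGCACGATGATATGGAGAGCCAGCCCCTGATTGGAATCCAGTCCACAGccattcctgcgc
Fn1 273-base exon: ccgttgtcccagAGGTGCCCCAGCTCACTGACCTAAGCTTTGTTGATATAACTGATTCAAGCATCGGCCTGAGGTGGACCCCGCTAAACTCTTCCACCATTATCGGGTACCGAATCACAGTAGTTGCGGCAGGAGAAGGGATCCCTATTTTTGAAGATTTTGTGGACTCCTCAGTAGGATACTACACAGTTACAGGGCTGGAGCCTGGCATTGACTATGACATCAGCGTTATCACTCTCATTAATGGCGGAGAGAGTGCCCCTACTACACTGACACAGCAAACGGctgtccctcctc
Fbln2 141-base exon: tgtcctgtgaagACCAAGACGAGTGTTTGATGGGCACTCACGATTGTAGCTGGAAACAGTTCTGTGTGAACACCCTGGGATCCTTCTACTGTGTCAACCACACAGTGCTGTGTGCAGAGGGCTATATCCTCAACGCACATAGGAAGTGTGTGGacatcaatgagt

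Values are FPKM, fragments per kilobase of transcript scaled to the fragments mapped in each library, so levels can be compared between genes of different length. The depth behind them is unknown, and the precision of a value is its SD over 3 libraries. Limch1 was at 23.31 to 25.69 FPKM in Limch1_OE, against 0.1 to 0.25 FPKM in Vector, which matches the labels. Along the first principal component (74.9% of the variance) the groups were apart, and on the second Limch1_OE replicate 1 stood away from replicates 2 and 3. Mitochondrially encoded genes took 6.31 to 8.73% of all FPKM in Limch1_OE, highest in replicate 1, and 4.76 to 5.57% in Vector, and their part in the differences below was not tested. The epithelial markers Krt8, Krt18, Krt7, Krt19, Cdh1 and Epcam were all expressed, with summed levels of 1454 to 1605 FPKM in Limch1_OE libraries, against 1473 to 1543 FPKM in Vector. Of these 6 markers, Epcam fell by 0.44 (limma adjusted p = 2.45e-04) and Cdh1 by 0.18 (0.0143), Krt7 rose by 0.37 (0.00315), and their part in the results was not tested. Of 8 myoepithelial and basal markers chosen, the table lists 7, without Krt5. Of those 7, 6 stayed below 1 FPKM in every library, among them Trp63 and Acta2, and Krt14 was at 14.68 to 20.55 FPKM. In RNA from whole cultures, a smaller share of cells expressing a gene and less of its mRNA per cell cannot be told apart.

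All 9 genes passed the filter of at least 1 FPKM in at least 3 libraries. In the test over all 11842 such genes (limma on log2(FPKM + 1), two-sided, Benjamini-Hochberg adjusted p under 0.05), 6 of the 9 rose in Limch1_OE (Lama5, Lamc1, Hspg2, Sparc, Fn1 and Postn) and 3 fell (Lama3, Lamb3 and Fbln2). Over all tested genes 20.2% rose and 14.4% fell, 34.6% in all. The 9 were chosen with earlier results of these data known, so their count is a description. Their median log2 fold change was 0.25, against 0.04 over all tested genes. With trimmed-mean-of-M-values scaling, 1855 genes were called higher and 2075 lower, against 2388 and 1706 as deposited, and 5 of the 9 were higher and 3 lower. Each of the 9 had groups that did not overlap, which 49.1% of all tested genes also showed.

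**Figure D1:**
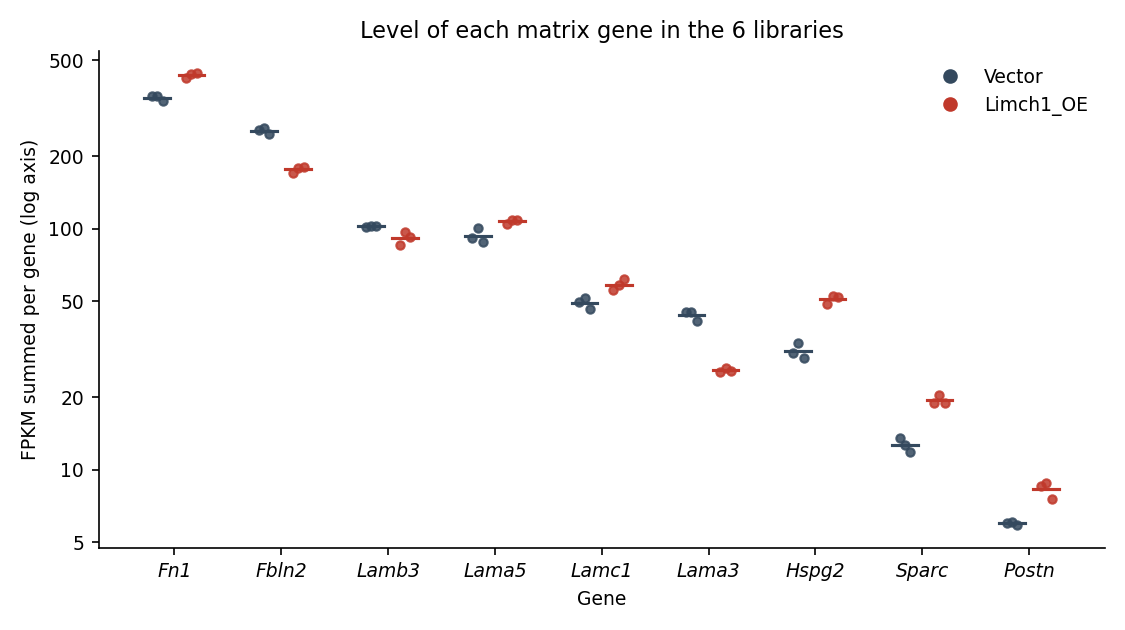
FPKM summed per gene (log axis) for the 9 genes in each library, with Vector in dark blue, Limch1_OE in red and bars at the group means. The groups are apart for every gene, from Fn1 at 350 and 434 FPKM (Vector and Limch1_OE means) down to Postn at 6.0 and 8.33 FPKM.

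Fn1 had the highest level of the 9 in both groups and ranked 128 of all tested genes by mean FPKM. Fbln2 came next at rank 261, while Postn was lowest at rank 7763. In Vector the order from the top was Fn1, Fbln2, Lamb3, Lama5, Lamc1, Lama3, Hspg2, Sparc and Postn. In Limch1_OE it was the same except that Lama5 stood above Lamb3 and Hspg2 above Lama3. No neighbours in either order overlapped, but the lowest Lamb3 value in Vector exceeded the highest Lama5 value by only 0.44 FPKM, less than the SD of Lama5 there (6.92 FPKM). The gaps of Lamc1 over Lama3 in Vector (1.3 FPKM) and over Hspg2 in Limch1_OE (2.73 FPKM) were also less than the SD of Lamc1 (2.63 and 3.24 FPKM). With only its full-length transcript Lamc1-201 counted, Lamc1 overlapped Hspg2 in Limch1_OE (lowest 52.83 FPKM, against a highest Hspg2 value of 52.84 FPKM).

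The alpha-3 chain gene Lama3 (ENSMUSG00000024421, mm10 chromosome 18, 12333819 to 12583013, plus strand) had the greatest fall of the 9. It was at 25.35, 26.57 and 25.71 FPKM in Limch1_OE replicates 1 to 3, against 44.99, 45.15 and 41.52 FPKM in Vector replicates 1 to 3. All Limch1_OE libraries lay well below all Vector libraries. The means were 25.9 ± 0.627 and 43.9 ± 2.05 FPKM (SD, n = 3 each), a difference of -41.0% in FPKM, with a fitted log2 fold change of -0.74 (SE 0.05, limma adjusted p = 1.40e-05). Lama3 makes a short and a long form from separate start sites. The short transcript Lama3-202 (38 exons, 5172 coding bases) carried 99.45 to 99.84% of the gene's FPKM in every library, and the long Lama3-201 (75 exons, 9990 coding bases) stayed at or below 0.23 FPKM. At the transcript level Lama3-202 fell by 0.74 (SE 0.05, limma adjusted p = 0.00168, adjusted over 19905 transcripts, of which 7.24% were called and 4.12% fell).

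Lamb3, the beta-3 chain gene (ENSMUSG00000026639, chromosome 1, 193207699 to 193343878, plus strand), fell by a small amount. It was at 85.75, 97.24 and 92.36 FPKM in Limch1_OE replicates 1 to 3, against 101.72, 102.84 and 102.46 FPKM in Vector. The Vector libraries lay close together above all Limch1_OE libraries, and Limch1_OE replicate 1 was lowest. The fitted log2 fold change came to -0.16 (SE 0.05, limma adjusted p = 0.0468), a difference of -10.3% in FPKM. The call ended in 10 of 14 alternative analyses, among them quantile normalization (-0.10, limma adjusted p = 0.13) and the replicate number as a block (limma adjusted p = 0.0531). It also ended without any of Limch1_OE replicates 1 and 3 (-0.11 and -0.16, limma adjusted p = 0.0845 and 0.0766) and Vector replicates 1, 2 and 3 (-0.16, -0.15 and -0.16, limma adjusted p = 0.11, 0.115 and 0.107). The direction was the same in all 14.

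The alpha-5 chain gene Lama5 (ENSMUSG00000015647, chromosome 2, 180176373 to 180225859, minus strand) was at 105.05, 108.85 and 108.54 FPKM in Limch1_OE, against 91.64, 101.28 and 87.85 FPKM in Vector. The groups did not overlap, and Vector replicate 2 came nearest to the Limch1_OE libraries. The fitted log2 fold change came to 0.20 (SE 0.06, limma adjusted p = 0.0267), 14.8% higher on the FPKM scale. The call ended in 8 of 14 alternatives, including trimmed-mean-of-M-values scaling (0.16, limma adjusted p = 0.0605) and the removal of any of Limch1_OE replicates 2 and 3 and Vector replicates 1 and 3 (0.19, 0.19, 0.19 and 0.16, limma adjusted p = 0.0818, 0.0612, 0.089 and 0.0898).

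Lamc1, the gamma-1 chain gene shared by most laminins (ENSMUSG00000026478, chromosome 1, 153218922 to 153332786, minus strand), was at 55.57, 58.55 and 62.05 FPKM in Limch1_OE, against 49.84, 51.63 and 46.45 FPKM in Vector. Every Limch1_OE library lay above every Vector library, and the gene rose by 0.25 (SE 0.06, limma adjusted p = 0.0121). Part of the Limch1_OE replicate 3 value came from Lamc1-204, a short transcript of 3 exons listed at 8.93 FPKM there and at 0 in each other library. The full-length Lamc1-201 was at 55.33, 58.51 and 52.83 FPKM in Limch1_OE, against 49.70, 51.23 and 46.35 FPKM in Vector. Those groups did not overlap either, but with Lamc1-201 in place of the sum the log2 fold change was 0.18 (limma adjusted p = 0.0993).

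Of other laminin chain genes, Lamb2 rose by 0.37 (SE 0.07, limma adjusted p = 0.00396), from 10.4 ± 0.498 to 13.7 ± 0.896 FPKM (SD, n = 3 each). Lamb1 encodes the commonest beta chain and was at 113 ± 0.915 FPKM in Limch1_OE, against 117 ± 0.356 FPKM in Vector. Its log2 fold change of -0.05 did not pass the test (limma adjusted p = 0.404, 95% interval -0.13 to 0.04). Lama2, Lama4 and Lamc3 stayed below 1 FPKM in every library, and Lama1 was not found among the genes listed. Of the 6 tested laminin chain genes described here 3 rose and 2 fell, with a median log2 fold change of 0.08. With the chains among the 9 genes left out, 1 of 2 rose and 0 fell, against 20.2% and 14.4% of all tested genes.

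**Figure D2:**
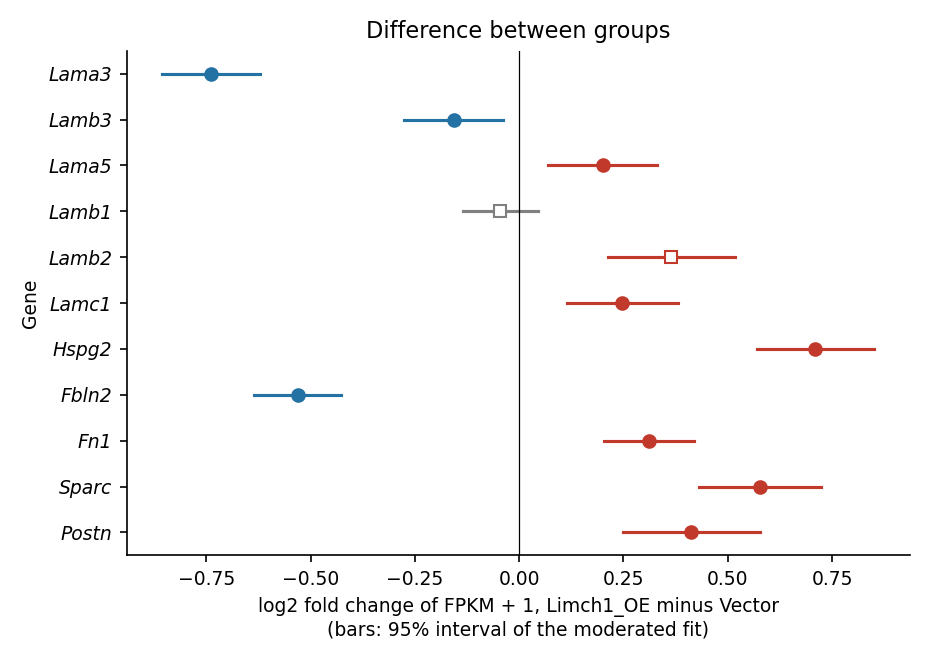
Log2 fold change on the log2(FPKM + 1) scale, Limch1_OE minus Vector, with the 95% interval of the limma fit. Filled circles are the 9 genes and open squares the laminin chains Lamb1 and Lamb2; red is higher, blue lower and grey not called. Lama3 (-0.74) lies lowest and Hspg2 (0.71) highest.

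Because a trimer holds 1 chain of each kind, the chain genes were also compared as ratios of FPKM within a library. The Lama3 to Lamb3 ratio was 0.296, 0.273 and 0.278 in Limch1_OE, against 0.442, 0.439 and 0.405 in Vector. The ratio was lower in each Limch1_OE library than in any Vector library, with a log2 difference of -0.60. The exact two-sided permutation p was 0.1, which is the lowest possible with 3 and 3 libraries (0.133 after Benjamini-Hochberg adjustment over 4 ratios). Lama3 mRNA was thus scarcer than Lamb3 mRNA in both groups.

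Among the other chains, the Lama5 to Lamc1 ratio was 1.83 ± 0.0741 in Limch1_OE, against 1.90 ± 0.0617 in Vector (SD, n = 3 each) and its groups overlapped (exact permutation p = 0.4). The Lamb1 to Lamc1 ratio was 1.93 ± 0.0978 and 2.37 ± 0.122, and the Lamb2 to Lamc1 ratio 0.234 ± 0.0108 and 0.212 ± 0.0123, each without overlap (exact permutation p = 0.1 for both, n = 3 each). With only the top transcript of each gene counted, the log2 difference of the Lamb1 to Lamc1 ratio shrank from -0.30 to -0.10.

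**Figure D3:**
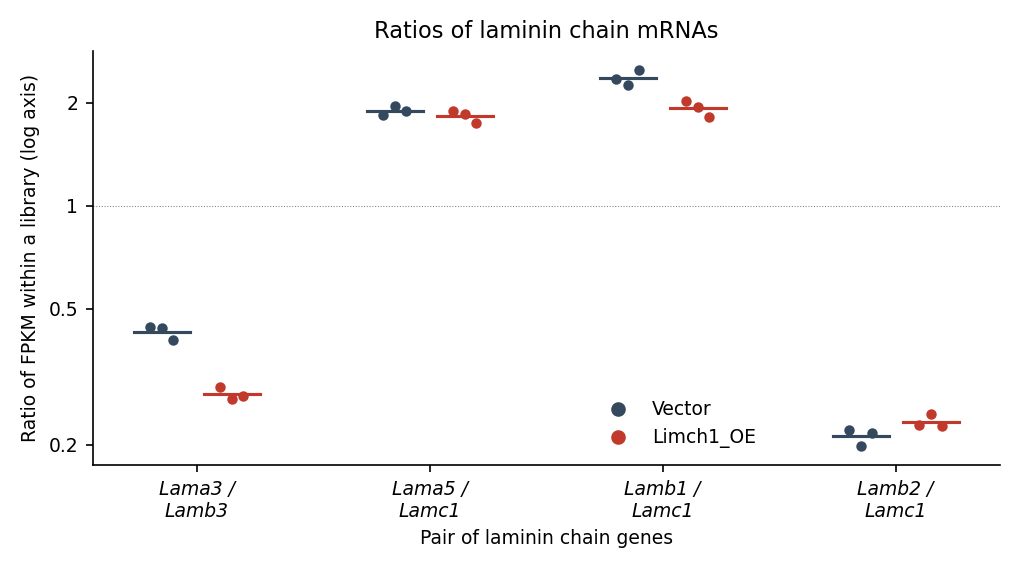
Ratio of FPKM between pairs of laminin chain genes within each library (log axis), with bars at the group means. The Lama3 to Lamb3 ratio averages 0.282 in Limch1_OE (red) and 0.429 in Vector (dark blue), and the Lama5 to Lamc1 ratio overlaps.

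Hspg2 (ENSMUSG00000028763, chromosome 4, 137468769 to 137570630, plus strand) encodes perlecan, a large heparan sulfate proteoglycan that binds growth factors and links laminin to collagen IV. It was at 48.93, 52.84 and 52.12 FPKM in Limch1_OE, against 30.40, 33.56 and 29.07 FPKM in Vector. Every Limch1_OE library lay far above every Vector library. Perlecan mRNA thus rose from 31.0 ± 2.31 to 51.3 ± 2.08 FPKM (SD, n = 3 each), 65.4% higher, with a fitted log2 fold change of 0.71 (SE 0.06, limma adjusted p = 6.35e-05), the greatest rise of the 9. Its main transcript Hspg2-201 also rose at the transcript level, by 0.61 (SE 0.09, limma adjusted p = 0.0191; 3.12% of all tested transcripts rose). Hspg2-203, whose coding sequence has 13149 bases to the 13125 of Hspg2-201, was at 3.57, 13.74 and 4.99 FPKM in Limch1_OE, against 2.85, 2.98 and 1.98 FPKM in Vector and did not pass the test (limma adjusted p = 0.23). Limch1_OE replicate 2 alone held 13.74 FPKM of it.

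Upstream sequence is shown for Hspg2 and Lama5, the members with the most GC boxes before their start, from RefSeq (GRCm38.p6, the assembly behind mm10). RefSeq start regions were given for 6 of the 9 genes, all but Lama3, Lamc1 and Fn1. Capitals mark the GC box, the letters GGGCGG on either strand, which is the recognition core of SP1-type factors. The Hspg2 stretch covers chr4:137468553-137468768 (plus strand, 216 bases, 5 matches) and the Lama5 stretch chr2:180225860-180226109 (minus strand, 250 bases, 4 matches).
Hspg2 upstream: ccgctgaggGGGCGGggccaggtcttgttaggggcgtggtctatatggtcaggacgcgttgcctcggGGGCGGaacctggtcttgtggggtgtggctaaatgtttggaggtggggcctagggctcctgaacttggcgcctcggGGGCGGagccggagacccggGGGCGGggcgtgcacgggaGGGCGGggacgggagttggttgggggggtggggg
Lama5 upstream: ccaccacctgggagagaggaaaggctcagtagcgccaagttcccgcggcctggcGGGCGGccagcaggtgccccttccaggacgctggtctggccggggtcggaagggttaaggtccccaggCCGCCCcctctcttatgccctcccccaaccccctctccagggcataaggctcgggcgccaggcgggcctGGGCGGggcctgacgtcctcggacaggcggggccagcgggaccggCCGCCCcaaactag
Of all 32851 windows of 250 bases before a RefSeq start, 32.7% held a GC box. Fbln2 held 1 match in its window, and the windows of Lamb3, Sparc and Postn held none, so genes called higher and genes called lower were found both with and without a match. The windows of Fbln2, Lamb3 and Sparc precede RefSeq starts that lie inside the gene spans given here, so they are not upstream of those spans. The AP-1 letters TGANTCA, in 6.75% of all windows, were in none of the windows of these 6 genes. Such matches are descriptions of the letters, and binding was not measured.

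The other basement membrane genes moved in both directions. Of 11 tested genes on that list, Hspg2 included, 4 rose and 4 fell, with a median log2 fold change of -0.08. The collagen IV alpha-1 gene Col4a1 fell from 99.3 ± 4.12 to 69.0 ± 3.10 FPKM (SD, n = 3 each; log2 fold change -0.52, limma adjusted p = 1.54e-04). Tinagl1, a secreted glycoprotein of basement membranes, fell by 0.47, a call that ended with only its top transcript counted (-0.44, limma adjusted p = 0.546). Col4a2, the obligate partner of Col4a1, and the proteoglycan gene Agrn (agrin) fell by 0.46 and 0.38. By contrast Col4a5, a minor collagen IV chain, rose by 0.67, Col7a1, the anchoring fibril collagen, by 0.44 and the netrin gene Ntn1 by 0.36. Ntn1 was at 1.64, 1.57 and 1.38 FPKM in Limch1_OE, against 0.98, 1.03 and 0.89 FPKM in Vector. It met the filter of 1 FPKM only through the Limch1_OE libraries, so it could hardly be called lower, and it is 1 of the 4 that rose.

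Among laminin receptors and their anchors 3 of 11 tested genes rose and 3 fell (median 0.01). Those that fell were Plec (plectin, -0.57), Itgb4 (integrin beta-4, -0.44) and Itga3 (integrin alpha-3, -0.42). Those that rose were Bcam, a receptor for the alpha-5 chain, Dst (dystonin, a hemidesmosome linker, 0.28) and Dag1 (dystroglycan, 0.17). Bcam was at 0.683 ± 0.186 FPKM in Vector and 1.33 ± 0.0252 FPKM in Limch1_OE (SD, n = 3 each). It passed the filter through the Limch1_OE libraries alone, so it could only be called higher, and its fold change depended on the pseudocount (0.47, or 0.89 with a pseudocount of 0.1). The Dst call ended without Limch1_OE replicate 1 (0.19, limma adjusted p = 0.0744) or replicate 2 (0.27, 0.0908), and without Vector replicate 1, 2 or 3 (0.26, 0.30 and 0.26; limma adjusted p = 0.0934, 0.0574 and 0.0919). It also ended with trimmed-mean-of-M-values scaling (0.23, limma adjusted p = 0.0558). With only the top transcript counted, Dst gave 0.11 (limma adjusted p = 0.438) and Itgb4 -0.06 (0.866). Itga6, the partner of Itgb4, was at 35.95 to 39.53 FPKM in Limch1_OE, against 35.76 to 39.02 FPKM in Vector. The tetraspanin gene Cd151, whose product binds laminin-binding integrins, had a log2 fold change of -0.10 and did not pass the test (limma adjusted p = 0.253).

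Fbln2 (ENSMUSG00000064080, chromosome 6, 91212455 to 91272540, plus strand) fell in Limch1_OE. It was at 170.99, 178.77 and 180.14 FPKM in Limch1_OE, against 257.91, 261.52 and 247.81 FPKM in Vector, and the groups were far apart. The fitted log2 fold change came to -0.53 (SE 0.05, limma adjusted p = 5.68e-05), a difference of -30.9% in FPKM. The split of this sum between transcripts was far less stable than the sum. The 141-base exon shown above took 1.46, 0.508 and 24.0% of the FPKM of Fbln2-201 and Fbln2-202 together in Limch1_OE, against 0.0553, 26.7 and 4.18% in Vector. Inclusion was high in Limch1_OE replicate 3 and Vector replicate 2 and low elsewhere, and it did not separate the groups (exact permutation p = 0.7). Fbln2-202 alone, at 157 ± 21.3 FPKM in Limch1_OE, against 225 ± 33.3 FPKM in Vector (SD, n = 3 each), did not pass the transcript test (-0.52, limma adjusted p = 0.105), nor, used in place of the sum, the gene test (limma adjusted p = 0.0622).

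Of the fibulins, elastic fibre and microfibril genes, 7 were tested, Fbln2 included, of which 3 rose and 3 fell (median -0.07). With Fbln2 left out, 3 of 6 rose and 2 fell, against 20.2% and 14.4% of all tested genes. The fibulin-4 gene Efemp2 fell by 0.44. The latent TGF-beta binding protein genes differed in direction: Ltbp4 rose by 0.45 and Ltbp2 by 0.37, whereas Ltbp1 fell by 0.23 with overlapping groups (limma adjusted p = 0.049). The Ltbp1 call ended without Limch1_OE replicate 1 or 3 (-0.20 each, limma adjusted p = 0.113 and 0.119) or Vector replicate 1 or 3 (-0.22 and -0.17, limma adjusted p = 0.121 and 0.156). With the replicate block its adjusted p was 0.0852 (limma), and it also lost its call without an intensity trend (0.0689) or a filter (0.127). With only the top transcript counted, Efemp2 gave -1.17 (limma adjusted p = 0.039), Ltbp2 0.60 (0.139) and Ltbp1 -0.32 (0.385). The lysyl oxidase relative Loxl4, which crosslinks matrix, rose by 0.30.

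Fn1 (ENSMUSG00000026193, chromosome 1, 71585520 to 71653200, minus strand) was at 423.15, 438.36 and 442.01 FPKM in Limch1_OE, against 354.83, 357.63 and 337.84 FPKM in Vector. The groups were far apart compared with the spread within each. The fitted log2 fold change came to 0.31 (SE 0.05, limma adjusted p = 0.00155), 24.1% higher on the FPKM scale. Fn1-203, which lacks both exons shown above, carried the most, 57.67, 53.64 and 69.75% of the gene's FPKM in Limch1_OE, against 59.06, 68.08 and 56.36% in Vector.

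The 270-base exon was held by 32.5, 35.8 and 23.7% of the FPKM of full-length Fn1 transcripts in Limch1_OE and by 30.9, 25.2 and 34.7% in Vector. The means were 30.7 ± 6.24% and 30.3 ± 4.8% (SD, n = 3 each), and the difference of 0.402 points was far less than the spread (exact permutation p = 0.9). The 273-base exon, listed only in Fn1-201, took 9.45, 0.0966 and 3.58% in Limch1_OE, against 0.295, 6.26 and 9.65% in Vector, ranging widely within both groups (exact permutation p = 0.7). The sum of the Fn1 transcripts passed the test, while Fn1-203 alone did not pass the transcript test (0.29, limma adjusted p = 0.272). Fn1-203 in place of the sum gave 0.29 (limma adjusted p = 0.198).

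Of 9 tested genes on the list of fibronectin and periostin receptors, 4 fell and 0 rose (limma, median -0.18). That list also holds the urokinase receptor gene Plaur, which is among the 4 that fell. Over all tested genes 20.2% rose and 14.4% fell at the adjusted threshold. The remaining 5 genes on the list did not pass the test. Itgb6 (integrin beta-6, an epithelial fibronectin receptor that also activates latent TGF-beta) fell from 4.64 ± 0.133 to 2.30 ± 0.293 FPKM (SD, n = 3 each; log2 fold change -0.78, limma adjusted p = 3.26e-04). The urokinase receptor gene Plaur fell by 0.47, the syndecan gene Sdc1 by 0.31 and Itga5, whose product pairs with integrin beta-1 as the classical fibronectin receptor, by 0.24. Itgb1 itself was at 263 to 295 FPKM in Limch1_OE, against 283 to 303 FPKM in Vector and did not pass the test.

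Sparc (ENSMUSG00000018593, chromosome 11, 55394500 to 55423183, minus strand) encodes a collagen-binding glycoprotein that takes part in collagen assembly. It was at 19.00, 20.46 and 19.00 FPKM in Limch1_OE, against 13.60, 12.72 and 11.90 FPKM in Vector. Every Limch1_OE library lay well above every Vector library. The rise was 53.0% on the FPKM scale, a fitted log2 fold change of 0.58 (SE 0.06, limma adjusted p = 2.74e-04). A pair of transcripts shared it about evenly. Sparc-202 rose by 0.48 (SE 0.07, limma adjusted p = 0.0196), and Sparc-201 had a log2 fold change of 0.62 (SE 0.13, limma adjusted p = 0.0527). The table lists 5 of the 9 transcripts annotated for Sparc, 3 of 9 for Lamb3 and 2 of 4 for Lama5, so these levels, the order of Lamb3 and Lama5 and the ratios that use them may be affected, which was not tested.

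Postn (ENSMUSG00000027750, chromosome 3, 54361109 to 54391037, plus strand) encodes periostin, a matricellular ligand of alpha-v integrins that in tumours comes largely from fibroblasts. It was at 8.60, 8.82 and 7.58 FPKM in Limch1_OE, against 6.02, 6.09 and 5.89 FPKM in Vector. The Vector values were nearly equal and all below the Limch1_OE values. It rose by 0.41 (SE 0.07, limma adjusted p = 0.00318), 38.9% on the FPKM scale. Of 10 fibroblast markers chosen, the table lists 7, without Lum, Pdgfrb and Thy1. Those 7 were low: 6 stayed below 1 FPKM in every library, with Col1a1, Col1a2, Col3a1 and Dcn at no more than 0.07 FPKM. Pdgfra was at 1.74 to 1.97 FPKM in Limch1_OE, against 1.33 to 1.62 FPKM in Vector. The 7 summed to 1.93 to 2.16 FPKM in Limch1_OE, against 1.68 to 1.85 FPKM in Vector. The part of that sum in the Postn difference was not tested.

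The sum of the Postn transcripts was steadier than its parts. Its 4 full-length transcripts differ in 2 exons near the 3′ end of the coding region, of 81 and 84 bases. The 84-base exon was held by 32.2, 75.3 and 65.7% of full-length Postn FPKM in Limch1_OE and by 51.7, 28.4 and 19.1% in Vector. Limch1_OE replicates 2 and 3 were highest but replicate 1 lay among the Vector libraries, and the test did not separate the groups (exact permutation p = 0.2). The 81-base exon was held by 63.0 ± 8.75% in Limch1_OE, against 58.0 ± 15.2% in Vector (SD, n = 3 each; exact permutation p = 0.7). Postn-203, the most abundant on average, was at 3.27, 1.0 and 1.46 FPKM in Limch1_OE, against 1.99, 2.14 and 3.53 FPKM in Vector. Used in place of the sum it gives a fitted difference of -0.34 (limma adjusted p = 0.508), opposite in sign to that of the gene.

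**Figure D4:**
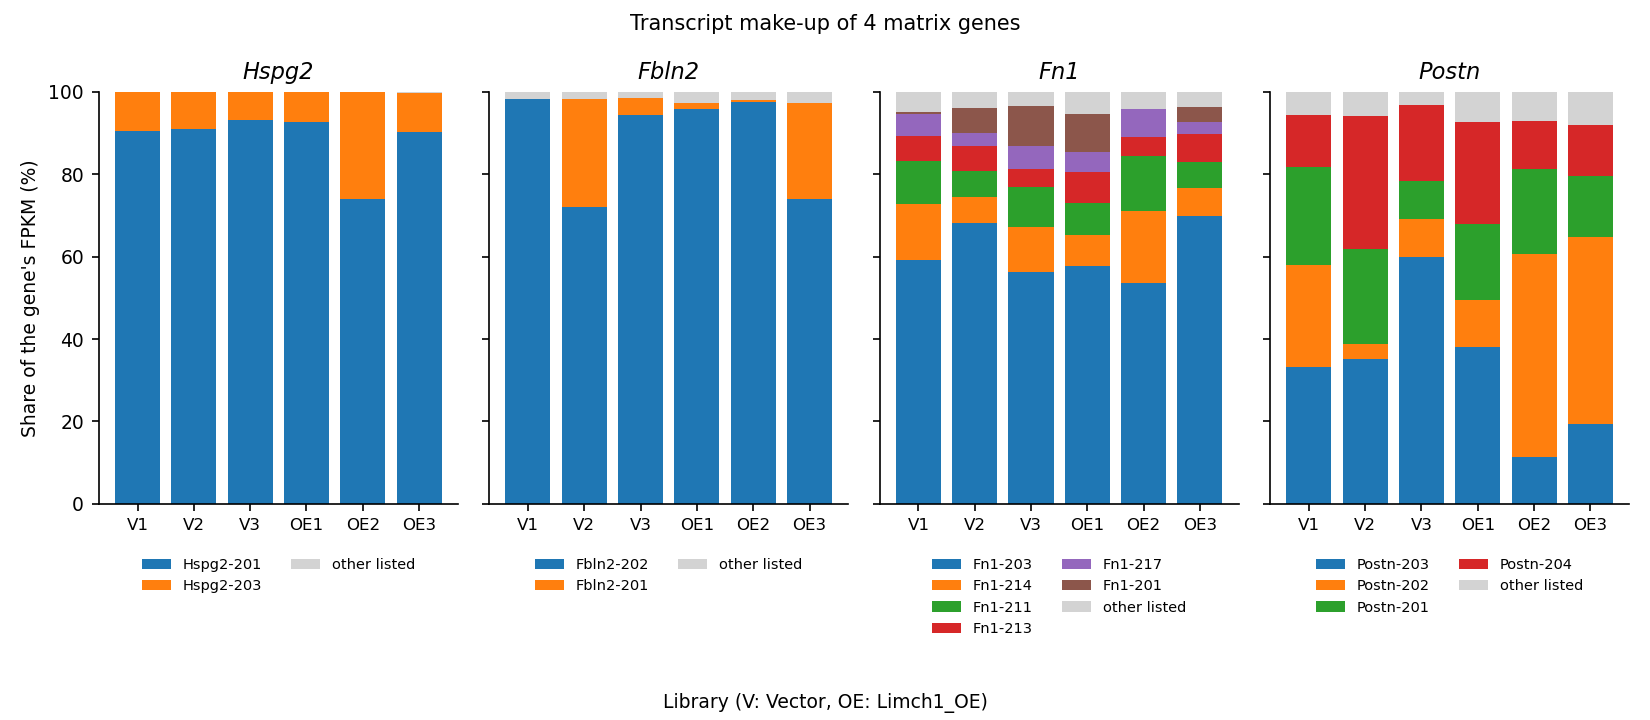
Share of each gene's summed FPKM (percent) held by its listed transcripts in the Vector (V) and Limch1_OE (OE) libraries, for Hspg2, Fbln2, Fn1 and Postn. Shares vary between replicates of a group, such as Fbln2-202 from 72.02% to 98.18% within Vector, and no group difference stands out from that spread.

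For all 9 genes the share of the most abundant transcript was compared between groups, and none of the 9 comparisons passed (exact permutation p from 0.2 to 0.9, adjusted p from 0.75 to 0.90). The shares were 99.45% or more in every library for Lama3, Lama5 and Lamb3. Of 53 listed transcripts of the 9 genes 23 were tested one by one, of which 2 rose (Hspg2-201 and Sparc-202) and 1 fell (Lama3-202). Over all tested transcripts 3.12% rose and 4.12% fell.

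Of 8 tested matricellular genes 5 rose and 1 fell (median 0.24), Sparc and Postn included. With Sparc and Postn left out, 3 of 6 rose and 1 fell, against 20.2% and 14.4% of all tested genes. Ccn4, a secreted target of Wnt signalling, rose from 2.41 ± 0.536 to 7.43 ± 0.646 FPKM (SD, n = 3 each; log2 fold change 1.31, limma adjusted p = 8.44e-05). The thrombospondin gene Thbs3 and the osteopontin gene Spp1 rose by 0.28 and 0.20. The Thbs3 call ended when any 1 of the 6 libraries was left out (0.25 to 0.32, limma adjusted p from 0.0502 to 0.133) and with trimmed-mean-of-M-values scaling (0.25, 0.0618). It also ended with the replicate block (0.28, limma adjusted p = 0.0802), without a filter (0.124), with quantile normalization (0.20, 0.125) and with only the top transcript counted (0.11, 0.733). Ccn2 (connective tissue growth factor) fell by 0.62 from 86.3 ± 1.70 to 55.7 ± 0.521 FPKM. Ccn1 and Thbs1, the most abundant besides, had log2 fold changes of -0.09 each and did not pass the test.

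Interstitial collagens were mostly low, 10 of 13 listed genes staying below 1 FPKM in every library. Of the 3 tested, Col5a1 rose from 0.547 ± 0.0702 to 1.63 ± 0.180 FPKM (SD, n = 3 each), and Col8a1 rose by 0.22. Col5a1 passed the filter through the Limch1_OE libraries alone, so it could only be called higher, and its fold change was 0.76, or 1.42 with a pseudocount of 0.1. Of 15 tested genes that modify or process collagen and other matrix proteins 3 rose and 7 fell (median -0.03). Ppib, a prolyl isomerase of the collagen-folding complex, fell by 0.51 and Bmp1, a protease that processes procollagens, by 0.45 (by 0.69 with only its top transcript counted). The crosslinking transglutaminase gene Tgm2 rose by 0.33, the procollagen protease gene Adamts14 by 0.29 and the collagen chaperone gene Serpinh1 by 0.28. The Adamts14 call ended without Limch1_OE replicate 2 or 3 (0.28 and 0.27, limma adjusted p = 0.0864 and 0.0733) or Vector replicate 1 or 3 (0.23 and 0.28, limma adjusted p = 0.111 and 0.0834), and that of Col8a1 without Limch1_OE replicate 2 (0.18, limma adjusted p = 0.0541). Of 11 listed matrix proteoglycans 9 were below 1 FPKM throughout, and neither of the 2 tested (Gpc1 and Gpc4) passed, with log2 fold changes of 0.09 and 0.08 (limma; 0 at an unadjusted p under 0.05).

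**Figure D5:**
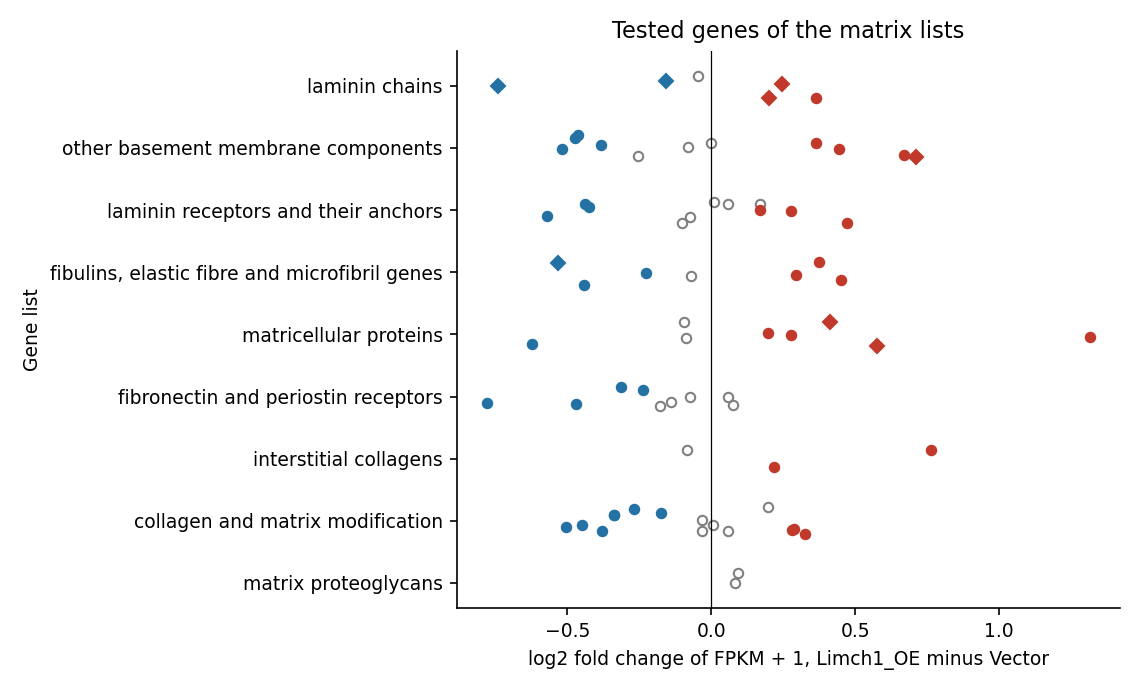
Log2 fold change on the log2(FPKM + 1) scale, Limch1_OE minus Vector, for each tested gene of 9 matrix lists. Red is higher, blue lower and open grey not called, and diamonds mark members of the 9 genes described. Lists other than the fibronectin and periostin receptors, the interstitial collagens and the proteoglycans hold genes called in both directions.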

How the data were processed

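RNA from 6 libraries was measured by sequencing. The authors' deposited table gives FPKM per transcript, 1 column a library, printed to 2 decimals. Per the submitters' processing notes fastp 0.23.2, STAR 2.7.10, featureCounts 2.0.1, StringTie 2.2.1 and build mm10 were used. The tool that made the FPKM, the annotation release, the use of strand and any filter were not given in the sources used here. It holds 77865 transcripts of 26094 genes, of which 26033 identifiers matched GENCODE M21. Depth is unknown, so no count test and no counting interval was used. Transcript FPKM is estimated from reads that overlapping transcripts share, so it is less certain than the sum.

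Groups and replicate numbers came from the sample titles. Transcripts were summed per gene and genes reaching 1 FPKM in 3 or more libraries were tested with limma 3.58.1 in R 4.3.3 (intensity trend) on log2(FPKM + 1), a scale that understates the change of low genes, with Benjamini-Hochberg adjustment and a threshold of 0.05. The procedure was tested on simulated data. Single transcripts were tested likewise, and shares and ratios by exact two-sided permutation, which cannot go below 0.1. Alternatives were a pseudocount of 0.1, other filters, other scalings, the most abundant transcript, no trend, a replicate block and leaving out each library. A planned result on 1 further gene is not reported here, and list counts and the adjustment over ratios leave it out. Genes and lists were chosen with earlier results of these data known. The counts of every list are to be read beside the 20.2% of all tested genes that rose and the 14.4% that fell. Beyond the 9 genes, Limch1 and the laminin chains, the rule named up to 2 called genes with the highest and up to 2 with the lowest fold change per list. Other genes (Col4a2, Agrn, Ntn1, Itga3, Itga6, Cd151, Dag1, Loxl4, Gpc1, Gpc4, Sdc1, Itga5, Itgb1, Spp1, Ccn1, Thbs1, Serpinh1 and the markers) and the exon shares were chosen after their values were seen. Of the other markers, 7 of 8 chosen endothelial, 6 of 8 leukocyte and 3 of 7 adipocyte and muscle genes are listed. Of those listed, 7 of 7 endothelial, 5 of 6 leukocyte and 3 of 3 adipocyte and muscle genes were below 1 FPKM in every library. The remaining leukocyte marker, Cd68, was at 33.1 ± 2.76 FPKM in Limch1_OE, against 26.7 ± 2.74 FPKM in Vector (SD, n = 3 each; log2 fold change 0.31, limma adjusted p = 0.0239), and its part in the results was not tested.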

Additional observations from a re-analysis of the deposited data

How the results depend on the processing

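Over 14 alternatives for each of the 9 genes, 104 fold changes kept direction and call, 21 kept direction without the call and 1 reversed. Lama3, Hspg2 and Sparc passed in all 14, over ranges of -0.78 to -0.72, 0.61 to 0.77 and 0.48 to 0.62. With only the top transcript of each gene counted, 2 of the 9 genes were higher and 1 lower, Postn turned to -0.339 and Lamb1 to 0.078, 997 genes were higher and 999 lower, and the log2 differences of the ratios to Lamc1 became 0.0258 for Lama5 and -0.0992 for Lamb1. Leaving out each library left 1578 to 2147 genes higher (1578 without Limch1_OE replicate 2 and 1590 without Vector replicate 1, against 2388), 110 to 259 transcripts higher (622 with all libraries) and 265 to 579 transcripts lower (820 with all). Without a filter 153 transcripts were higher and 409 lower. The deviations of same-numbered libraries were only weakly correlated (-0.0017, 0.0456 and 0.0592 for replicates 1, 2 and 3), against -0.0674 to 0.0271 between unlike numbers. Limch1_OE replicates 2 and 3 correlated best with the same-numbered Vector library. Replicate 1 correlated best with Vector replicate 2, but at only 0.0013. These values do not settle whether the replicate numbers pair the libraries. With the replicate block 2219 genes were higher and 1589 lower, and 67 transcripts were higher and 269 lower. Of the 9 genes, only Lamb3 lost its call under the block. The cause of these shifts was not tested. The unknown depth leaves the error of low transcripts, such as those of Postn, to the spread of 3 libraries.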
